A study of Arabidopsis thaliana with 30 samples.

Results

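The first hour of light and warmth after stratification was described from 6 of the 30 RNA-seq libraries of a germination time course in *Arabidopsis thaliana* Col-0. All libraries labelled 1 h SL or 48 h S were taken, 3 of each, and all 38217 features of the deposited gene count table were considered, of which 23222 had enough reads to be tested. The full series had 10 time points, namely seed at harvest (H), seed after dry ripening (0 h), stratification (1, 12 and 48 h S) and growth in light (1, 6, 12, 24 and 48 h SL). Seeds of both groups came from wild-type plants and were sown on medium with 3% sucrose. The 1 h SL seeds were stratified for 48 h at 4 °C in darkness and then kept for 1 h at 22 °C in continuous light of 100 µE m-2 s-1. The 48 h S seeds were collected at the end of the same cold and dark period. Light and warming began together, so their effects cannot be told apart, and neither can those of handling at the transfer. The seeds came from a single batch of plants and whole seeds were sampled, so fewer cells of a type and less RNA per cell cannot be told apart.

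Heat shock factors are transcription factors that bind heat shock elements and switch on chaperone genes, whose products keep other proteins folded or take aggregates apart. In Arabidopsis a few constitutive factors of the A1 class act first, and HSFA2 is the best known factor that is itself induced. Light is sensed in the imbibed seed by phytochromes, which act through transcription factors such as HY5 and the PIF proteins and favour gibberellin over abscisic acid, the hormone that holds germination back. The circadian clock is a set of mutually regulating transcription factors that both light and temperature can reset.

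Total counts were 41949116 to 55334725 reads in the 1 h SL libraries and 41598918 to 56206155 reads in the 48 h S libraries, and the 10 most abundant genes took 12.3% to 15.6% of reads at 1 h SL and 13.6% to 16.6% at 48 h S. Replicate 2 of 1 h SL stood apart. Of 12149 genes with a mean of at least 5 CPM (counts scaled to a common library total), 1292 lay more than 2-fold above both other 1 h SL replicates in it and 162 lay more than 2-fold below, whereas in the other 5 libraries these counts were 0 to 10 and 3 to 16. The median exon length was 2416.5 bases for the genes that were high in replicate 2, 648.5 bases for those that were low and 1797 bases for all. The seed identity of the tissue held in all 6 libraries: the 12 seed storage and oil body markers summed to 38434, 56530 and 42169 CPM at 1 h SL, against 42485, 37568 and 37318 CPM at 48 h S, and none was at 0. The 4 endosperm markers summed to 508, 2343 and 644 CPM at 1 h SL, against 907, 1105 and 829 CPM at 48 h S, with the highest sum in 1 h SL replicate 2. The 4 markers of photosynthetic tissue summed to 83.6, 181 and 89.5 CPM at 1 h SL, against 68.0, 55.5 and 79.5 CPM at 48 h S. None of these 20 markers passed the test below, and the part of replicate 2 in the results was not tested beyond the values given without it.

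Genes were tested with edgeR's quasi-likelihood test, fitted on all 30 libraries, and called where the Benjamini-Hochberg adjusted p over all genes tested was below 0.01. After 1 h, 1028 genes were higher than at 48 h S (4.43% of those tested) and 851 were lower (3.66%), 8.09% in either direction. Without 1 h SL replicate 2 the counts were 799 (3.41%) and 645 (2.75%), and 1129 genes, 60.1% of the 1879 called, were called both with and without it. Without 48 h S replicate 1, 2 or 3 in turn, 680, 589 and 682 genes were higher and 476, 410 and 594 were lower. The rises reached further than the falls: 140 genes rose and 57 fell at least 4-fold, and 52 rose and 6 fell at least 8-fold. Over all genes tested, the median change was 0.01 on the log2 scale. The 3 libraries of 1 h SL lay wholly above or below those of 48 h S in 1024 of the 1028 genes that were higher and in 806 of the 851 that were lower, and the same held for 29.5% of all genes tested. Protein coding genes made up 992 of the rises and 784 of the falls. At an adjusted p below 0.01, a fit of the 6 libraries alone called 275 genes, 270 of them also among the calls from 30 libraries.

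**Figure D1:**
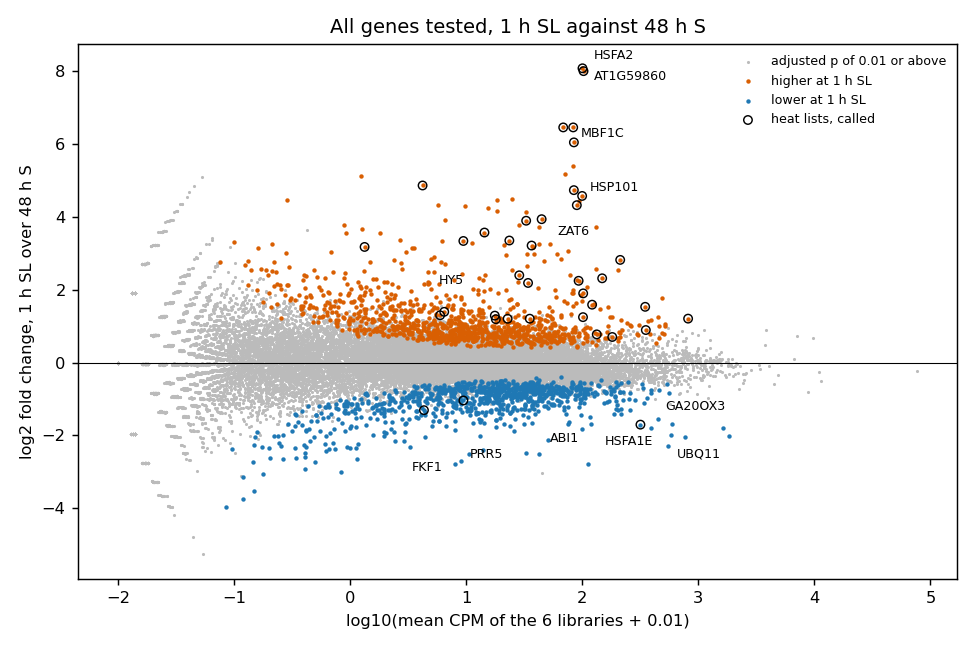
Each point is a gene tested, with its log10 mean CPM over the 6 libraries on the horizontal axis and its log2 fold change, 1 h SL over 48 h S, on the vertical axis. Orange points were higher and blue points lower at an adjusted p below 0.01, and ringed points are called members of the heat lists, which hold the top of the plot with HSFA2 at 8.08 and AT1G59860 at 8.01.

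The heat shock factors held the gene with the largest rise. *HSFA2* (AT2G26150) had 112, 322 and 165 CPM at 1 h SL, against 0.675, 0.89 and 0.409 CPM at 48 h S. Every 1 h SL library lay far above every 48 h S library, and separate groups were a condition for naming the largest rises. The log2 fold change was 8.08 ± 0.32 (SE), a 271-fold rise (adjusted p = 6.08e-16), and 7.71 without 1 h SL replicate 2. The promoter of *HSFA2* is printed because it carries 3 matches to the heat shock element, GAANNTTC or TTCNNGAA, in the 250 bases before the start, at chr2:11135374-11135623 on the plus strand of TAIR10. The matches, in capitals, lie 88 to 81, 83 to 76 and 33 to 26 bases before the start, and the first pair overlaps. The sequence is from the NCBI RefSeq reference.
HSFA2: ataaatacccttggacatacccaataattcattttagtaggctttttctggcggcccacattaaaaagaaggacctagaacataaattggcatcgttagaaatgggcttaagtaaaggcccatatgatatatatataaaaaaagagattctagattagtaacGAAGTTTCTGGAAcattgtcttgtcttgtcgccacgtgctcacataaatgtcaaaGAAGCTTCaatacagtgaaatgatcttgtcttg

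*HSFA7A* and *HSFA7B*, close relatives of HSFA2 that are also heat-induced, followed. *HSFA7A* had 103, 174 and 129 CPM at 1 h SL, against 1.64, 1.44 and 1.18 CPM at 48 h S, a log2 fold change of 6.46 ± 0.29 (adjusted p = 2.63e-15). *HSFA7B* had 95.1, 249 and 146 CPM at 1 h SL, against 5.65, 5.59 and 5.53 CPM at 48 h S, 26.7-fold higher (adjusted p = 8.90e-13). The class B factors, which lack the activation domain of class A and mostly act as repressors, rose less. *HSFB2A* had 73.2, 105 and 74.04 CPM at 1 h SL, against 5.24, 6.14 and 3.89 CPM at 48 h S, and *HSFB2B* rose 11.9-fold. *HSFB1* rose 2.3-fold, to 26.5, 47.2 and 23.5 CPM at 1 h SL, against 12.4, 11.4 and 15.00 CPM at 48 h S. The groups did not overlap in any of these 6 factors, as in 29.5% of all genes tested. For HSFA2, HSFA7A and HSFA7B the rule for naming the largest rises required this. Each of the 6 stayed called without any single library. In the fit of 6 libraries HSFB1 alone among them was not called (adjusted p = 0.0204).

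None of the constitutive A1 factors named was called higher. *HSFA1E* had 175, 144 and 146 CPM at 1 h SL, against 473, 473 and 488 CPM at 48 h S, 3.26-fold lower (log2 fold change -1.70 ± 0.16, adjusted p = 2.28e-08). *HSFA5*, which in Arabidopsis binds HSFA4 and holds it back, was 2.06-fold lower, with 5.52, 8.84 and 5.05 CPM at 1 h SL, against 13.8, 13.8 and 9.45 CPM at 48 h S (adjusted p = 6.34e-05, and 0.0265 in the fit of 6 libraries). Of the other A1 factors, *HSFA1B* (log2 fold change -0.07 ± 0.12) and *HSFA1D* (-0.22 ± 0.23) did not pass the test, and their groups overlapped. The remaining A1 factor listed, *HSFA1A*, was not among the factors called. *HSFA9*, the factor of seed maturation, had 4.39, 3.18 and 3.98 CPM at 1 h SL, against 7.66, 6.94 and 6.39 CPM at 48 h S, which did not pass (adjusted p = 0.128) although the groups did not overlap. Per kilobase of exon, HSFA2 averaged 106 CPM at 1 h SL, against 0.351 CPM at 48 h S, and HSFA1E averaged 80.1 CPM at 1 h SL, against 247 CPM at 48 h S. The 1 h SL average of HSFA2 includes replicate 2, its highest library, so no order between the 2 genes is read from it at 1 h SL. In all, 6 of the 19 heat shock factors tested (21 listed) were higher and 2 lower, with a median log2 fold change of -0.01, close to that of all genes, and the same counts were found without 1 h SL replicate 2.

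Small heat shock proteins, which hold unfolded proteins in a state from which they can be refolded, rose in 11 of 19 members (57.9%) and fell in none. Of all genes tested 4.43% were higher and 3.66% lower. The median log2 fold change of the list was 1.21, and 1.03 without 1 h SL replicate 2. The largest changes were in a pair of cytosolic class I genes. *AT1G59860* had 211, 182 and 218 CPM at 1 h SL, against 0.635, 0.801 and 0.817 CPM at 48 h S (log2 fold change 8.01 ± 0.34, adjusted p = 2.01e-15). *AT1G07400* had 133, 189 and 172 CPM at 1 h SL, against 1.97, 1.64 and 1.63 CPM at 48 h S (6.46 ± 0.27, adjusted p = 1.75e-15). Their replicates lay close together, replicate 2 of 1 h SL included. Both are similar in sequence to other class I genes, and how reads shared between copies were counted is not given in the sources used here. Their promoters are shown because neither 250-base window holds an exact match to GAANNTTC or TTCNNGAA, the forms of the heat shock element counted for HSFA2. Near matches were not counted, so an imperfect element may be present. Capitals mark the site II element TGGGCC on either strand, and the windows share the 11-base run gagcccattat, 58 bases before the start of AT1G59860 and 92 before that of AT1G07400. They are at chr1:22031093-22031342 and chr1:2274676-2274925, both on the plus strand of TAIR10.
AT1G59860: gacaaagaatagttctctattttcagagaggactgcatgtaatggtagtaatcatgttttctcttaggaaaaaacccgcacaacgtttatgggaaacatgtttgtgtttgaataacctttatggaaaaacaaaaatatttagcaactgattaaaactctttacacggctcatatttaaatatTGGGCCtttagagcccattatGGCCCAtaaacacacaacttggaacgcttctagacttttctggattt
AT1G07400: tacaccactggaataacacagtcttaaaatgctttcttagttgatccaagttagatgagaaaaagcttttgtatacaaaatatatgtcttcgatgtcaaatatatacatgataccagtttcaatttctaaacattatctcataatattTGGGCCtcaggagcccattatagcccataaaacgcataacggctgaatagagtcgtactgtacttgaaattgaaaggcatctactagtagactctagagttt

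Members of other classes and compartments rose too. *AT1G54050*, of another cytosolic class, had 146, 184 and 183 CPM at 1 h SL, against 8.62, 7.79 and 7.6 CPM at 48 h S, 20.03-fold higher. *AT5G51440*, a mitochondrial form, had 42.4, 105 and 37.8 CPM at 1 h SL, against 4.03, 3.34 and 3.89 CPM at 48 h S, 14.9-fold higher and with its highest value in replicate 2. *HSP21*, the chloroplast form, rose 9.04-fold, with 1.27, 3.87 and 2.03 CPM at 1 h SL, against 0.491, 0.0712 and 0.168 CPM at 48 h S. Of the other called members, *AT5G37670* (log2 fold change 3.35), *AT1G52560* (2.40) and *AT2G19310* (2.25) were higher in all 3 libraries. *AT1G53540* rose least among them (1.19, adjusted p = 0.00524), and was not called without 1 h SL replicate 2 (adjusted p = 0.0439) or any 1 of the 48 h S libraries. In the fit of 6 libraries AT1G53540 and HSP21 were not called (adjusted p = 0.029 and 0.0217). Not all members were called. *HSP17.6A* had 1020.0, 779 and 1126 CPM at 1 h SL, against 1212, 1084 and 1333 CPM at 48 h S, with overlapping groups and a log2 fold change of -0.38 ± 0.40 (adjusted p = 0.573). *HSP17.4*, a class I gene that is also expressed in seed (-0.47 ± 0.32), and *ATHSP22.0* of the endoplasmic reticulum (-0.43 ± 0.26) did not pass either.

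Of 31 chaperones of the HSP100, HSP90 and HSP70 families and their helpers, 16 were higher (51.6%) and none lower, beside 4.43% and 3.66% of all genes tested. The median log2 fold change was 0.78. Without 1 h SL replicate 2, 14 were higher, none was lower and the median was 0.71. In the fit of 6 libraries 5 were higher and none lower, and replicate 2 was the highest 1 h SL library in 29 of the 31. *HSP101*, the cytosolic disaggregase needed for acquired heat tolerance, had 119, 298 and 158 CPM at 1 h SL, against 7.9, 6.44 and 7.6 CPM at 48 h S (4.58 ± 0.26, adjusted p = 7.88e-13). Its mitochondrial relative *CLPB4* had 30.8, 98.98 and 40.5 CPM at 1 h SL, against 11.4, 11.5 and 10.8 CPM at 48 h S. In both, replicate 2 of 1 h SL was the highest library and the other replicates still stood clear of 48 h S. The heat-inducible cytosolic *HSP90.1* had 147, 351 and 252 CPM at 1 h SL, against 43.7, 45.97 and 48.8 CPM at 48 h S, 4.98-fold higher, whereas *HSP90.2*, which is nearly identical to neighbouring copies, rose 2.89-fold. The inducible *HSP70* (AT3G12580) had 193, 761 and 174 CPM at 1 h SL, against 40.5, 47.1 and 54.3 CPM at 48 h S, a log2 fold change of 2.82 ± 0.34 that was 1.98 without replicate 2. The constitutive *HSC70-1* had 1050.4, 2623 and 836 CPM at 1 h SL, against 699, 785 and 726 CPM at 48 h S, which did not pass (adjusted p = 0.0158). Among helpers, *BAG6*, a calmodulin-binding partner of HSP70, had 1.57, 19.9 and 2.86 CPM at 1 h SL, against 0.328, 0.089 and 0.337 CPM at 48 h S. Its log2 fold change of 4.87 ± 0.67 was 3.20 without replicate 2, and fitting only the 6 libraries gave an adjusted p of 0.0269. That fit gave 0.0109 for CLPB4, 0.0163 for HSP70 and 0.021 for HSP90.2. The FK506-binding *ROF2* rose 10.1-fold, the HSP70-HSP90 organiser *HOP3* 9.29-fold and the exchange factor *FES1A* 3.01-fold.

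Outside the chaperones, *MBF1C*, a transcriptional coactivator of the heat response, had 174, 147 and 178 CPM at 1 h SL, against 2.09, 2.76 and 2.31 CPM at 48 h S (66.2-fold, adjusted p = 3.99e-13). *DREB2A*, which links drought and heat responses, had 182, 153 and 151 CPM at 1 h SL, against 40.4, 39.5 and 43.2 CPM at 48 h S, 3.74-fold higher. Its paralogue *DREB2B* was 2.47-fold lower, with 2.18, 2.8 and 2.79 CPM at 1 h SL, against 5.73, 6.49 and 5.79 CPM at 48 h S (adjusted p = 8.03e-05). Of the 7 other heat stress genes listed these 3 were the ones called, 2 higher (28.6%) and 1 lower (14.3%). In the endoplasmic reticulum list 2 of 21 members were higher (9.52%) and 1 lower (4.76%), beside 4.43% and 3.66% of all genes tested. The median was 0.23, and 1 was higher and 2 lower without 1 h SL replicate 2. *ERDJ3A*, a J-protein of that compartment, rose most in the list, with 43.8, 121 and 65.6 CPM at 1 h SL, against 7.33, 7.99 and 6.61 CPM at 48 h S (9.56-fold, adjusted p = 3.04e-11). *PDIL1-2* (0.67, adjusted p = 0.00821) and *BZIP60* (-0.58, adjusted p = 0.00877) passed narrowly, and without 1 h SL replicate 2 their adjusted p were 0.0822 and 0.0567. PDIL1-2 was also lost without 48 h S replicate 1 or 3, and BZIP60 without 1 h SL replicate 3 or any 48 h S library. *HSFB2B*, *HSP101*, *HOP3*, *FES1A*, *MBF1C*, *DREB2A*, *DREB2B* and *ERDJ3A*, and below *FKF1*, *BOA*, *PIF6*, *PIF7*, *BBX8*, *LHCB4.2*, *MYB44* and *ABI1*, overlap another annotated gene, and since the sources used here do not state that strand was counted, their reads may include some of the neighbour's.

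**Figure D2:**
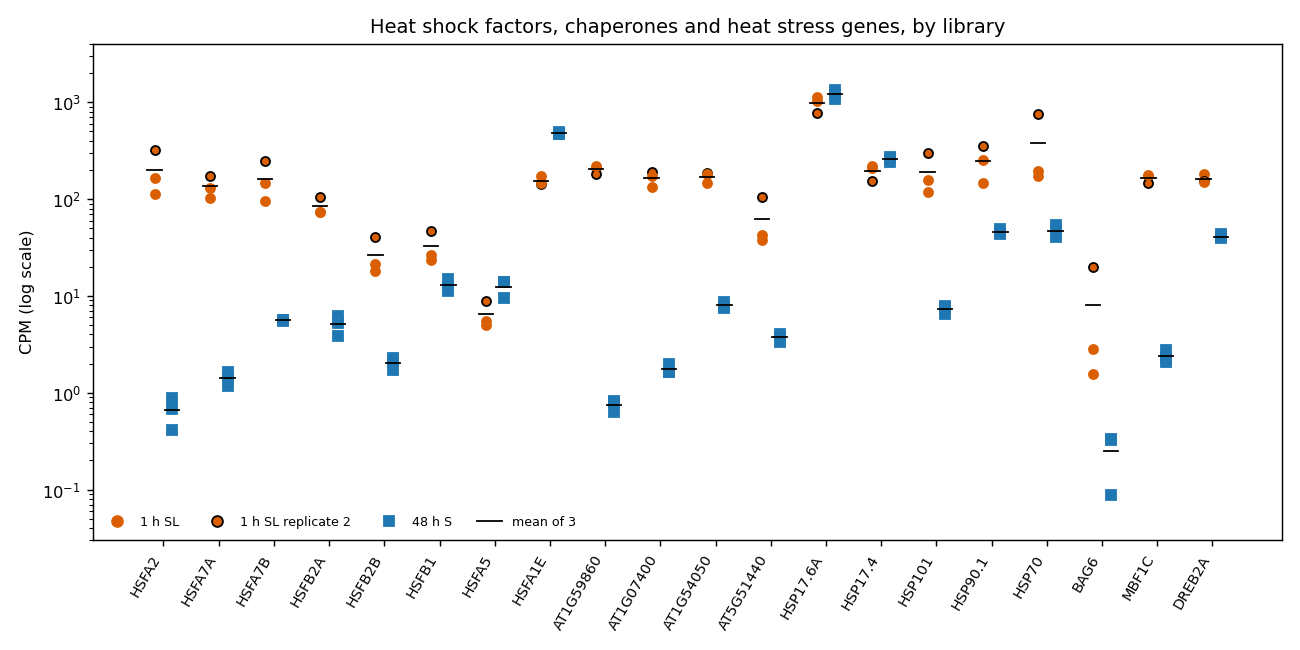
CPM of each library on a log axis for 20 heat-related genes, 1 h SL as orange circles (replicate 2 ringed in black) left of 48 h S as blue squares, with a bar for the mean of 3. HSFA2, AT1G59860, HSFA7A and MBF1C sit at or below 2.76 CPM at 48 h S and above 100 at 1 h SL, HSFA1E and HSFA5 are lower at 1 h SL, and HSP17.6A and HSP17.4 lie near the same level in both.

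Of 35 photoreceptors and light signalling genes, 2 were higher (5.71%) and 4 lower (11.4%), beside 4.43% and 3.66% of all genes tested. The median log2 fold change was -0.18, and the same counts were found without 1 h SL replicate 2. *HY5*, the transcription factor that promotes development in light, had 8.32, 8.02 and 7.91 CPM at 1 h SL, against 1.68, 1.71 and 2.31 CPM at 48 h S. Its replicates were nearly equal and the groups far apart (log2 fold change 2.01 ± 0.21, adjusted p = 1.36e-07). Its homologue *HYH* had 46.4, 29.1 and 50.1 CPM at 1 h SL, against 63.9, 61.8 and 71.8 CPM at 48 h S, lower in all 3 libraries but not called (adjusted p = 0.0267). *PAR1*, which sequesters PIF proteins, had 14.8, 11.2 and 14.2 CPM at 1 h SL, against 5.34, 5.12 and 5.67 CPM at 48 h S, 2.37-fold higher (adjusted p = 0.00264). *HFR1*, another inhibitor of PIF proteins, had 1.66, 1.26 and 1.48 CPM at 1 h SL, against 3.58, 3.83 and 4.83 CPM at 48 h S, 2.95-fold lower (adjusted p = 9.05e-05). *FHL*, which carries phytochrome A into the nucleus, fell 2.53-fold, *PIF7* fell 2.08-fold and *PIF6*, whose groups overlapped, fell 2.32-fold. In the fit of 6 libraries the adjusted p of HFR1, PAR1, PIF7, FHL and PIF6 lay between 0.0133 and 0.0545. Leaving out 48 h S replicate 1 ended the calls of PAR1, PIF7, FHL and PIF6, with an adjusted p of 0.0684 for PIF6. PAR1, FHL and PIF6 were also lost without 48 h S replicate 2, PAR1 and PIF6 without 1 h SL replicate 1, PIF6 without 1 h SL replicate 3, and FHL without 1 h SL replicate 2 or 48 h S replicate 3.

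BBX proteins are zinc finger factors of light and flowering signalling. Here 1 of 21 was higher (4.76%) and 5 were lower (23.8%), beside 4.43% and 3.66% of all genes tested, with a median log2 fold change of -0.29. *BBX7* had 1.3, 2.75 and 1.43 CPM at 1 h SL, against 6.53, 10.2 and 4.18 CPM at 48 h S, and *BBX8* had 8.0, 6.4 and 7.77 CPM at 1 h SL, against 15.8, 15.1 and 15.5 CPM at 48 h S. They were 4.1-fold lower (adjusted p = 2.78e-06) and 2.21-fold lower (adjusted p = 7.68e-06). The groups were separate in both, which the rule for naming the largest falls required of BBX7. *BBX28* was 2.12-fold lower. The fit of 6 libraries gave an adjusted p of 0.0149 for BBX7, 0.0149 for BBX8 and 0.0283 for BBX28. The member that was higher, *BBX22*, had 5.75, 21.8 and 4.74 CPM at 1 h SL, against 3.4, 3.34 and 2.93 CPM at 48 h S, and its adjusted p was 0.00221, or 0.0754 without 1 h SL replicate 2, and it was not called without 48 h S replicate 2 or 3 either. *BBX6* was 1.64-fold lower with overlapping groups (adjusted p = 0.0029), and not called without 1 h SL replicate 1 or 48 h S replicate 1 or 2, nor in the fit of 6 libraries (0.0587). Without 1 h SL replicate 2 no BBX gene was higher and 4 were lower. None of 13 light-protective and flavonoid genes was called, and *ELIP1*, an early light-induced protein of the chloroplast, had 4.02, 5.26 and 6.1 CPM at 1 h SL, against 10.7, 10.1 and 10.7 CPM at 48 h S (adjusted p = 0.0152). Of 35 chlorophyll and antenna genes only *LHCB4.2* was called (2.5-fold higher, adjusted p = 0.00129, but 0.0127 without 1 h SL replicate 2 and 0.0147 without 48 h S replicate 2), and the median of the list was 0.32.

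The circadian clock list had 15 of 35 members called, 5 higher (14.3%) and 10 lower (28.6%), beside 4.43% and 3.66% of all genes tested. The median log2 fold change was -0.20. Without 1 h SL replicate 2, 4 were higher and 6 lower. The deepest fall among the genes named was that of *FKF1*, a blue light receptor of the ZTL family that marks repressors of flowering for degradation. *FKF1* had 2.39, 1.93 and 2.1 CPM at 1 h SL, against 13.4, 15.2 and 13.2 CPM at 48 h S (6.91-fold lower, log2 fold change -2.79 ± 0.22, adjusted p = 5.03e-10). *PRR5*, a pseudo-response regulator that represses morning genes, had 2.27, 3.54 and 1.74 CPM at 1 h SL, against 13.8, 16.7 and 15.6 CPM at 48 h S (6.55-fold lower, -2.71 ± 0.21, adjusted p = 5.03e-10). Every 1 h SL library lay below every 48 h S library in both, which the rule for naming the largest falls required. Their promoters are given because they hold the evening element AAATATCT, in capitals on either strand, 2 matches in FKF1 and 1 in PRR5. *AT5G66580*, the faller ranked between them, has no match and is given for contrast. The windows are chr1:25508389-25508638 on the plus strand, chr5:8358547-8358796 on the minus strand and chr5:26572015-26572264 on the plus strand of TAIR10.
FKF1: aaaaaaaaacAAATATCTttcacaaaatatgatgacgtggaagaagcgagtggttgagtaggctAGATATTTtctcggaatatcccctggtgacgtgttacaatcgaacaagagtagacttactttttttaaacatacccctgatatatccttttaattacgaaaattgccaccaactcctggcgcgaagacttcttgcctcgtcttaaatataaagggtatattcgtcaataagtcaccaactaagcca
PRR5: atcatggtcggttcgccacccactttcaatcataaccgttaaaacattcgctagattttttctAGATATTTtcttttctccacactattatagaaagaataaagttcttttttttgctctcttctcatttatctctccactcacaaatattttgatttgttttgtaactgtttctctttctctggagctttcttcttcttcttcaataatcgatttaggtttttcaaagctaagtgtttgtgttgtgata
AT5G66580: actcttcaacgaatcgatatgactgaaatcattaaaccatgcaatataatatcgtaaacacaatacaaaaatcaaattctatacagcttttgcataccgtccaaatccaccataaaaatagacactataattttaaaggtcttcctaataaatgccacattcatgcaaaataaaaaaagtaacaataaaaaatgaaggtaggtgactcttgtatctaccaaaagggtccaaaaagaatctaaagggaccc

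The morning factor *CCA1* had 57.7, 86.4 and 61.96 CPM at 1 h SL, against 143, 161 and 112 CPM at 48 h S, 2.17-fold lower (adjusted p = 2.44e-04). Its partner *LHY* had 40.4, 67.01 and 47.5 CPM at 1 h SL, against 76.5, 77.04 and 45.7 CPM at 48 h S, with overlapping groups, and did not pass (adjusted p = 0.275). *RVE7*, a MYB-like factor related to CCA1, went the other way, with 27.8, 53.1 and 33.9 CPM at 1 h SL, against 4.03, 4.48 and 2.84 CPM at 48 h S (9.32-fold higher, adjusted p = 4.12e-11). It was the largest rise of the list. *CDF1*, a repressor of flowering that FKF1 marks for degradation, rose 3.07-fold at a very low level, with 0.159, 0.524 and 0.334 CPM at 1 h SL, against 0.0614, 0.107 and 0.144 CPM at 48 h S (adjusted p = 0.00518, but 0.0582 without 1 h SL replicate 2, and not called without 1 h SL replicate 3 or 48 h S replicate 1 or 2). *BOA*, a paralogue of the evening complex factor LUX, had 35.01, 37.2 and 33.4 CPM at 1 h SL, against 13.6, 11.1 and 11.3 CPM at 48 h S (2.76-fold higher, adjusted p = 5.79e-06). *PRR9*, a pseudo-response regulator that is induced by light in seedlings, rose 2.02-fold (adjusted p = 0.00363, but 0.0109 in the fit of 6 libraries, and not called without 1 h SL replicate 3 or 48 h S replicate 1 or 2). The cold- and blue light-responsive *COR27* and its homologue *AT4G33980* (COR28) were 2.1-fold and 2.66-fold lower, with 39.7, 24.2 and 36.4 CPM for COR27 at 1 h SL, against 66.5, 68.3 and 66.7 CPM at 48 h S. COR27 was not called without 1 h SL replicate 2 (adjusted p = 0.0383) or any 1 of the 48 h S libraries, and in the fit of 6 libraries neither were CCA1 (0.0109), AT4G33980 (0.0212) and COR27 (0.0383).

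**Figure D3:**
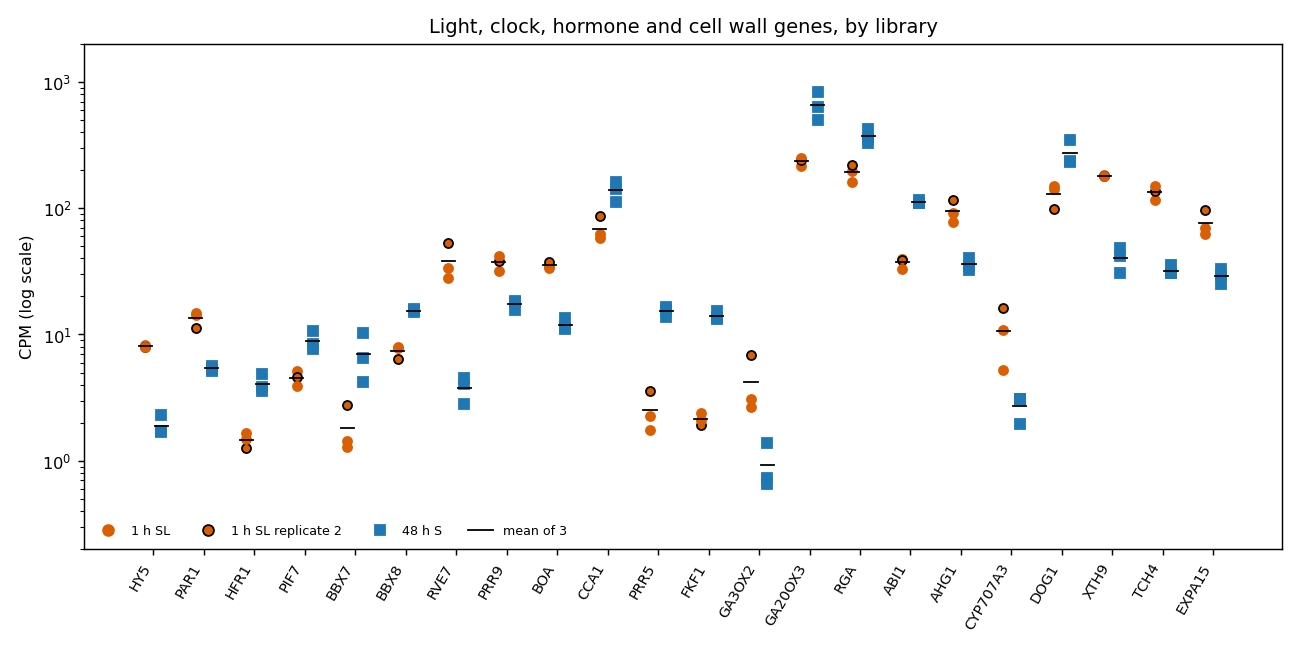
CPM of each library on a log axis for 22 light, clock, hormone and cell wall genes, with 1 h SL as orange circles (replicate 2 ringed in black) left of 48 h S as blue squares and a bar for the mean of 3. HY5, RVE7, BOA and XTH9 sit above and FKF1, PRR5, ABI1 and GA20OX3 below their 48 h S values in every library.

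Of 28 cold response genes tested, 2 were higher (7.14%) and 1 lower (3.57%) after 1 h at 22 °C. These shares lay near those of all genes tested, 4.43% and 3.66%, and the median log2 fold change was -0.14. *CBF2*, a master regulator of cold acclimation, had 0.25, 0.253 and 0.238 CPM at 1 h SL, against 1.51, 0.996 and 1.11 CPM at 48 h S, 5.18-fold lower (adjusted p = 4.75e-04). The members that were higher are zinc finger factors of general stress. *ZAT6* had 94.2, 80.7 and 113 CPM at 1 h SL, against 10.03, 9.13 and 9.62 CPM at 48 h S, 9.51-fold higher (adjusted p = 6.16e-11), and *ZAT12* had 32.8, 38.5 and 45.5 CPM at 1 h SL, against 3.68, 5.04 and 5.38 CPM at 48 h S, 7.8-fold higher (adjusted p = 6.17e-11). Of 38 touch, wound and jasmonate response genes, many of them known to respond to mechanical stimuli, 5 were higher (13.2%) and 7 lower (18.4%). The median was -0.39, and 5 were higher and 5 lower without 1 h SL replicate 2. Both directions were seen in the best known members. *TCH4*, a touch-induced cell wall enzyme, had 117, 137 and 151 CPM at 1 h SL, against 30.5, 35.2 and 30.5 CPM at 48 h S (3.96-fold higher), and *MYB44* rose 3.79-fold. The jasmonate repressor *JAZ7* rose 2.48-fold and the calmodulin-like *CML38* 2.39-fold. JAZ7 was not called without 48 h S replicate 2 or 3, and CML38 not without 1 h SL replicate 1 or 3 or 48 h S replicate 1 or 2. The ethylene response factors *ERF5* and *ERF2* fell 3.32-fold and 2.96-fold, with 11.6, 6.9 and 9.8 CPM for ERF2 at 1 h SL, against 29.8, 22.2 and 27.9 CPM at 48 h S. *WRKY40*, a defence regulator, was 2.32-fold lower and *ERF11*, a repressor of ethylene responses, 2.16-fold lower. WRKY40 lost its call without any 1 of the 6 libraries and ERF11 without 1 h SL replicate 2 or 48 h S replicate 1 or 2. In the fit of 6 libraries the adjusted p of JAZ7, CML38, ERF5, ERF2, WRKY40 and ERF11 lay between 0.0161 and 0.0545.

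Of 25 gibberellin genes, 1 was higher (4%) and 6 were lower (24%), beside 4.43% and 3.66% of all genes tested. The median log2 fold change was -0.41. Without 1 h SL replicate 2 none was higher and 6 were lower, and in the fit of 6 libraries none was higher and 2 were lower. *GA20OX3*, 1 of the 20-oxidases that make the precursors of active gibberellin, had 218, 242 and 249.7 CPM at 1 h SL, against 833, 637 and 498 CPM at 48 h S, 2.95-fold lower (adjusted p = 5.05e-05). *GA20OX2* had 47.8, 49.7 and 79.3 CPM at 1 h SL, against 246, 164 and 131 CPM at 48 h S, and was 3.23-fold lower, and *GA20OX1* was 2.17-fold lower. The inactivating enzyme *GA2OX2* was 3.0-fold lower as well, with 10.03, 9.02 and 9.13 CPM at 1 h SL, against 37.8, 22.6 and 19.5 CPM at 48 h S (adjusted p = 2.05e-06). The 3-oxidases make the active hormone. *GA3OX2* had 2.66, 6.85 and 3.1 CPM at 1 h SL, against 0.655, 0.729 and 1.39 CPM at 48 h S, 4.21-fold higher (adjusted p = 0.00292, but 0.0204 without 1 h SL replicate 2, and not called without 48 h S replicate 1 or 2). *GA3OX1* had 5.32, 12.99 and 5.58 CPM at 1 h SL, against 1.97, 5.62 and 5.41 CPM at 48 h S, and did not pass (adjusted p = 0.174). Of the DELLA repressors of gibberellin responses, *RGA* was 2.05-fold lower (adjusted p = 0.0015, but not called without 1 h SL replicate 3 or 48 h S replicate 2) and *RGL2*, the main DELLA of germination, had a log2 fold change of -0.85 ± 0.24 that did not pass (adjusted p = 0.0141). *SOM*, a light-repressed inhibitor of germination, did not pass either (-0.56 ± 0.23, adjusted p = 0.099). In the fit of 6 libraries GA20OX3 kept its call, whereas GA20OX1, GA20OX2, GA2OX2, GA3OX2 and RGA had adjusted p between 0.0141 and 0.0227.

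In the abscisic acid list, 3 of 25 members were higher (12%) and 5 lower (20%), beside 4.43% and 3.66% of all genes tested, with a median of 0.00. Without 1 h SL replicate 2 it was 2 higher and 3 lower with a median of -0.15. *ABI1*, a phosphatase that blocks abscisic acid signalling, had 39.6, 38.7 and 33.2 CPM at 1 h SL, against 110.0, 115 and 111 CPM at 48 h S, 3.2-fold lower with tight replicates (adjusted p = 2.80e-09). *AHG1*, a seed phosphatase of the same clade, rose 2.46-fold, to 77.5, 117 and 91.2 CPM at 1 h SL, against 40.2, 32.6 and 35.1 CPM at 48 h S (adjusted p = 7.19e-05). *HAI3*, also of that clade, was 1.78-fold lower (adjusted p = 0.00319), but not called without 1 h SL replicate 2 or 48 h S replicate 1, nor in the fit of 6 libraries (0.0662). Of the genes that make the hormone, *NCED6* and *NCED5* were 2.16-fold and 2.4-fold lower. Of those that break it down, *CYP707A3* had 5.27, 16.1 and 10.8 CPM at 1 h SL, against 3.07, 3.06 and 1.97 CPM at 48 h S (3.63-fold higher, adjusted p = 1.16e-05). *CYP707A1* rose 4.1-fold (adjusted p = 0.00197, but 0.0157 without 1 h SL replicate 2, and not called without 48 h S replicate 1 or 2), and *CYP707A2*, the main form in seeds, fell to 49.8, 58.4 and 55.7 CPM at 1 h SL, against 99.4, 75.5 and 70.3 CPM at 48 h S, and was not called without 1 h SL replicate 2 or 48 h S replicate 1. The NCED and CYP707A genes named had, in the fit of 6 libraries, adjusted p between 0.0171 and 0.0489. The dormancy gene *DOG1* had 143, 99.2 and 151 CPM at 1 h SL, against 346, 238 and 234.1 CPM at 48 h S, lower in all 3 libraries but not called (adjusted p = 0.0196). Of the Aux/IAA repressors of auxin responses, none of 27 was higher and 5 were lower (18.5%), with a median of -0.25. Without 1 h SL replicate 2 it was 1 higher and 3 lower, with a median on the other side of 0 (0.12). *IAA30* changed most, with 0.409, 0.271 and 0.31 CPM at 1 h SL, against 2.64, 1.49 and 1.66 CPM at 48 h S (6.26-fold lower, adjusted p = 2.52e-07). Per kilobase of exon it averaged 0.332 CPM at 1 h SL and 1.94 CPM at 48 h S. *IAA10* (2.61-fold lower, with overlapping groups), *IAA2* (1.73-fold) and *IAA26* (1.71-fold) followed. IAA10 was not called without 1 h SL replicate 1 or 3 or 48 h S replicate 1 or 2, and IAA26 not without 1 h SL replicate 2 or 48 h S replicate 2 or 3. These 3 had, in the fit of 6 libraries, adjusted p between 0.022 and 0.0645.

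Of 28 xyloglucan endotransglucosylases, which cut and rejoin wall polymers, 7 were higher (25%) and none lower, beside 4.43% and 3.66% of all genes tested. The median log2 fold change was 0.31. Without 1 h SL replicate 2, 2 were called while the median was larger (0.65). *XTR6*, at a low level, had 0.364, 1.43 and 0.691 CPM at 1 h SL, against 0.123, 0.107 and 0.168 CPM at 48 h S, 5.86-fold higher (adjusted p = 8.51e-04, but 0.015 without 1 h SL replicate 2 and 0.0248 in the fit of 6 libraries). *XTH9* had 182, 181 and 179 CPM at 1 h SL, against 30.6, 48.5 and 42.1 CPM at 48 h S, 4.22-fold higher with almost equal replicates (adjusted p = 0.00124, but 0.0123 without 48 h S replicate 1). *XTH4* had 5.25, 10.1 and 6.1 CPM at 1 h SL, against 0.982, 1.74 and 1.73 CPM at 48 h S (adjusted p = 0.00279, but 0.0104 without 1 h SL replicate 2, and not called without 48 h S replicate 1 or 2). Of 28 expansins, proteins that loosen the wall, 3 were higher (10.7%, beside 4.43% of all genes tested) and none was lower. Without 1 h SL replicate 2 it was 2 and none. *EXLA2* rose most, with 0.978, 1.95 and 0.691 CPM at 1 h SL, against 0.184, 0.142 and 0.0721 CPM at 48 h S (8.18-fold, adjusted p = 7.13e-06, but 0.0106 in the fit of 6 libraries). *EXPA15* had 69.3, 96.03 and 63.01 CPM at 1 h SL, against 29.4, 32.9 and 25.1 CPM at 48 h S (2.43-fold, adjusted p = 7.30e-04). *EXPA8* rose 2.37-fold, lost its call without any 1 library other than 1 h SL replicate 3, and had an adjusted p of 0.0309 in the fit of 6 libraries. Of 20 SR splicing factors 4 were higher (20%) and none lower, and without 1 h SL replicate 2 it was 2 and none. *SR45A*, an SR-like factor known for stress induction, had 29.9, 122 and 26.6 CPM at 1 h SL, against 5.85, 6.3 and 7.76 CPM at 48 h S, a log2 fold change of 3.00 ± 0.36, or 2.11 without 1 h SL replicate 2, and an adjusted p of 0.0152 in the fit of 6 libraries. *SCL33* had 16.9, 65.8 and 16.3 CPM at 1 h SL, against 10.4, 10.46 and 13.7 CPM at 48 h S, with an adjusted p of 0.0047, or 0.15 without 1 h SL replicate 2, and it was not called without 48 h S replicate 1 or 2 either. *SCL30A* had 105, 221 and 101 CPM at 1 h SL, against 72.7, 64.6 and 64.02 CPM at 48 h S, 1.94-fold higher (adjusted p = 7.32e-04, but 0.0102 without 1 h SL replicate 2). *SR34B* rose 1.55-fold (adjusted p = 0.00711) and lost its call without any 1 library other than 1 h SL replicate 2. No SR gene was called in the fit of 6 libraries.

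Of 306 ribosomal protein genes 20 were higher (6.54%) and 1 was lower (0.327%), beside 4.43% and 3.66% of all genes tested. The median log2 fold change was 0.07, and without 1 h SL replicate 2 the counts were 12 and 0 with a median of 0.25. Among called members the largest rises were *EMB3136* (1.33), a plastid form that the wording of the annotation let into the list, *AT2G34480* (1.24), *BBC1* (1.14) and the plastid *RPL12-A* (1.07). BBC1 and RPL12-A were not called without 1 h SL replicate 2 or 48 h S replicate 1 or 2, and RPL12-A not without 48 h S replicate 3. The 1 that fell was *AT5G15260* (-0.83), whose call was lost without any 1 of the 6 libraries. None of 11 nucleolar and ribosome biogenesis genes was called. Of 373 genes matched by the term pentatricopeptide or PPR, 12 were higher (3.22%) and 15 lower (4.02%), shares close to those of all genes. Without 1 h SL replicate 2 it was 9 and 19. The letters also matched other names, and 241 of them, with 5 higher and 12 lower, had a description that named the repeat. Among called members *RLP51*, a receptor-like protein, rose most (1.45), followed by *AT2G28050* (1.4), *MEF8S* (0.99) and *AT3G51320* (0.95). *AT4G20770* (-1.31), *AT1G26500* (-1.19), *AT5G13770* (-1.13) and *AT1G32415* (-1.12) fell most. RLP51, MEF8S, AT4G20770 and AT1G32415 kept their calls without any single library, and the other 4 lost them without 48 h S replicate 2. AT2G28050, AT3G51320 and AT5G13770 were also lost without 48 h S replicate 1, AT3G51320 and AT5G13770 without 1 h SL replicate 2, AT1G26500 and AT5G13770 without 1 h SL replicate 1 or 48 h S replicate 3, and AT1G26500 without 1 h SL replicate 3.

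**Figure D4:**
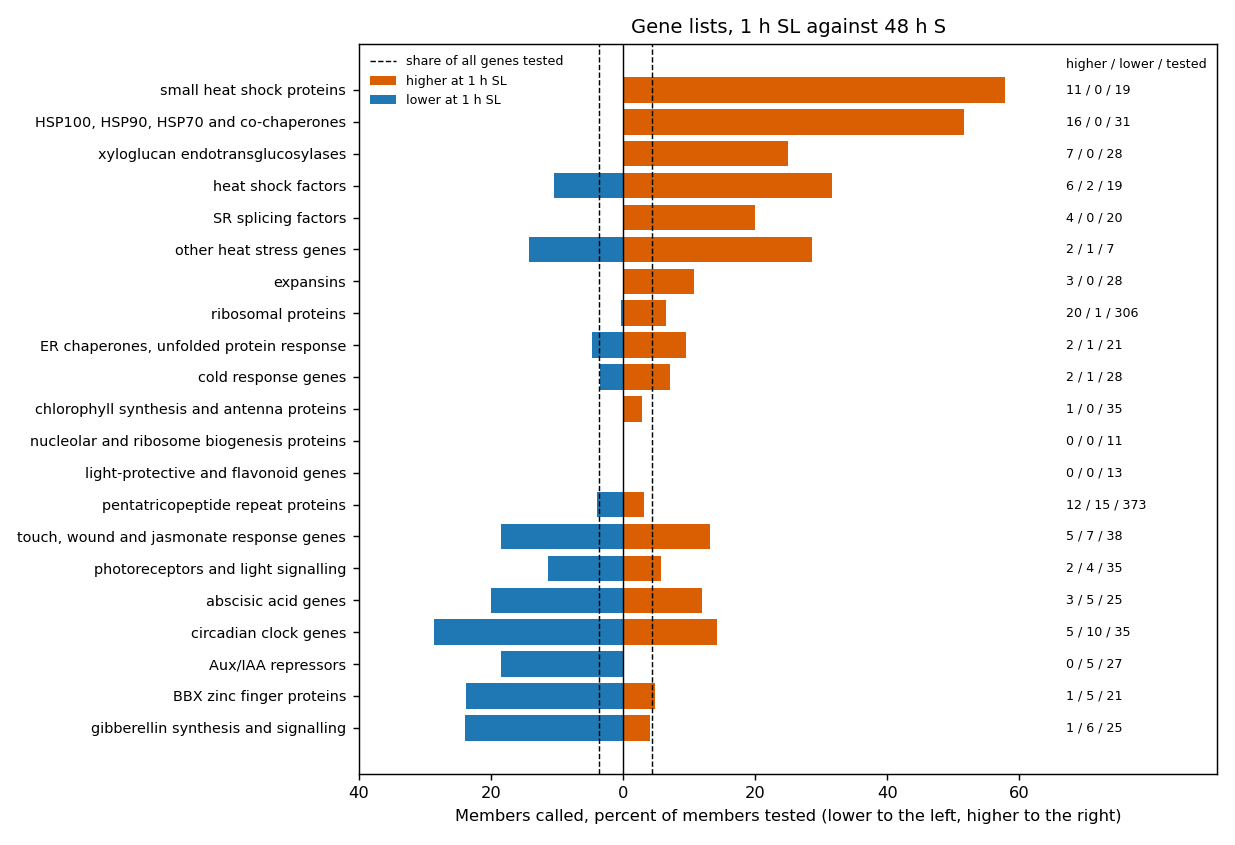
Bars give the percent of tested members of each list that were called higher (orange, right) or lower (blue, left) at 1 h SL, with dashed lines at the shares of all genes tested (4.43% and 3.66%) and the counts at the right. Small heat shock proteins (11 of 19 higher) and the larger chaperones (16 of 31 higher) reach furthest to the right, and the clock list (10 of 35 lower) reaches furthest to the left.

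Several of the largest changes lay outside these lists. *AT1G71000* and *AT3G13310*, which encode J-domain proteins that partner HSP70, had 136, 146 and 203 CPM and 24.3, 52.9 and 27.7 CPM at 1 h SL, against 3.36, 2.51 and 4.98 CPM and 1.13, 1.69 and 1.51 CPM at 48 h S. They were 42.3-fold and 22.2-fold higher, with separate groups, which the rule for naming the largest rises required. *AT3G19680*, of unknown function, had 57.3, 292 and 62.3 CPM at 1 h SL, against 3.07, 3.93 and 2.93 CPM at 48 h S, a log2 fold change of 5.19 ± 0.50, or 4.2 without 1 h SL replicate 2. *AT4G10265*, annotated as a wound-responsive protein, rose 22.6-fold. *AT3G19680* and *AT5G47060* overlap another annotated gene. Among the falls, *AT5G66580*, an uncharacterised protein, had 39.7, 16.4 and 32.1 CPM at 1 h SL, against 248, 129 and 205 CPM at 48 h S (6.85-fold lower, adjusted p = 8.79e-07, and 0.0108 with the 6 libraries alone). *HB-2* (ATHB2), a homeobox factor of shade avoidance that low red to far-red light induces in seedlings, had 2.34, 4.95 and 2.77 CPM at 1 h SL, against 23.4, 17.1 and 12.8 CPM at 48 h S (5.72-fold lower, adjusted p = 2.36e-09). *UBQ11*, a polyubiquitin gene, had 188, 221 and 177 CPM at 1 h SL, against 1017, 968 and 719 CPM at 48 h S (4.91-fold lower). Polyubiquitin genes consist of near-identical repeats, so its count is uncertain. *AT5G47060*, with a DUF581 domain, had 327, 209 and 387 CPM at 1 h SL, against 1273, 1096 and 1304 CPM at 48 h S. The remaining falls were the SAUR-like *AT1G16510* (5.62-fold), the senescence regulator-like *AT2G28400* (5.67-fold), *AT1G11210* (4.32-fold) and the non-coding *AT5G07115* and *AT5G07125* (5.23-fold and 5.0-fold), which overlap each other on opposite strands and may share reads.

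The values at 6 h SL were set beside those of the first hour. Both comparisons use the same 48 h S libraries, so they are not independent. *HSFA2* had a mean of 199.7 ± 109 CPM at 1 h SL (SD, n = 3) and of 8.41 CPM at 6 h SL, against 0.658 CPM at 48 h S, and its log2 fold change against 48 h S was 8.08 at 1 h and 3.44 ± 0.28 at 6 h. For *HSFA7A* the values were 6.46 and -0.37 ± 0.27, and for *HSP101* they were 4.58 and -0.21 ± 0.23. For *AT1G59860* they were 8.01 and 3.34 ± 0.30, and for *MBF1C* 6.05 and 3.45 ± 0.30. The median of the small heat shock proteins was 1.21 at 1 h and 0.40 at 6 h, and that of the larger chaperones was 0.78 and 0.05. HY5 had 2.01 at 1 h and 3.84 ± 0.22 at 6 h, and GA3OX2 had 2.07 and 5.98 ± 0.51. CCA1 had -1.12 and -6.09 ± 0.25, DOG1, which was not called at 1 h, had -1.13 and -6.33 ± 0.42, and the clock list had medians of -0.20 and -1.09. *FKF1*, in contrast, had -2.79 at 1 h and -1.54 ± 0.21 at 6 h, and *IAA30* had -2.65 and 0.73 ± 0.23.

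Over the 10 time points HSFA2 was highest at 1 h SL. Its mean was 20.1 CPM at H, 15.4 CPM at 0 h, 21.3 CPM at 1 h S, 4.66 CPM at 12 h S and 0.658 CPM at 48 h S, and it was 3.79, 9.44 and 5.29 CPM at 12, 24 and 48 h SL. *AT1G59860*, *AT1G07400*, *HSFA7A*, *HSFA7B*, *MBF1C* and *RVE7* likewise had their highest mean at 1 h SL, whereas *HSP101*, *HSP90.1* and *HSP70* were highest in freshly harvested seed. The genes whose time point means of log2(CPM + 1) were most like those of HSFA2 were *RVE7* (Pearson r = 0.944), *HSFB2B* (0.943), *ERDJ3A* (0.940), *AT1G59865* (0.934) and the tunicamycin-induced *TIN1* (0.919), over 10 time points that share all 30 libraries. This is a description with no test.

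**Figure D5:**
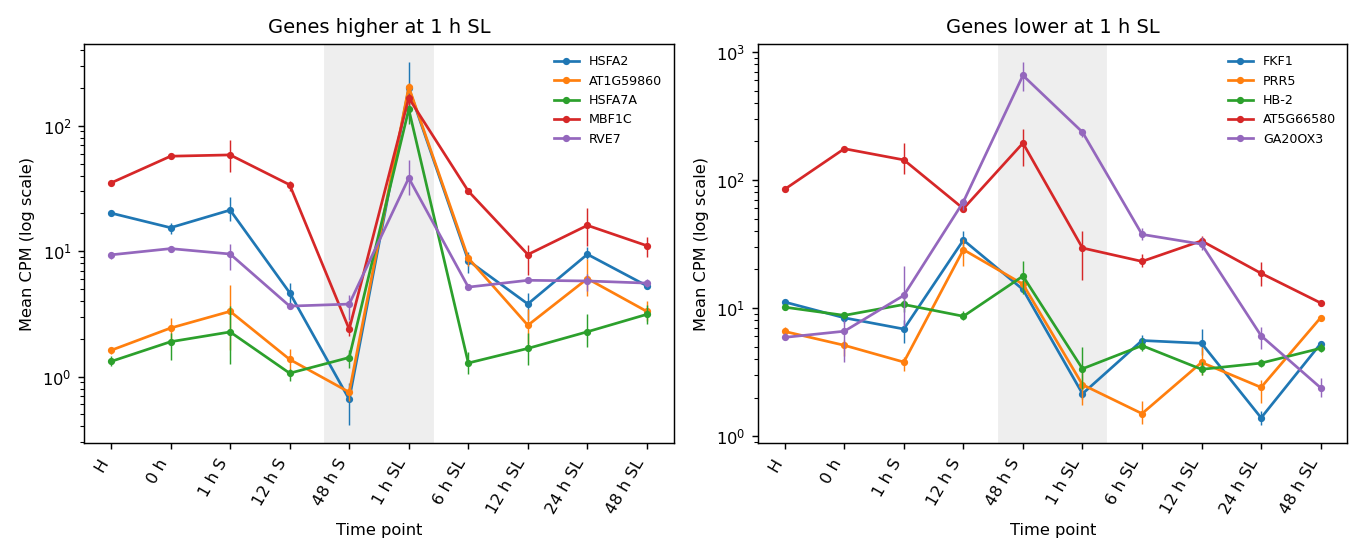
Mean CPM on a log axis over the 10 time points for 5 genes that were higher (left) and 5 that were lower (right) at 1 h SL than at 48 h S, with vertical lines from the lowest to the highest of 3 libraries and the compared pair shaded. HSFA2, AT1G59860, HSFA7A, MBF1C and RVE7 peak at 1 h SL, and FKF1, PRR5, HB-2, AT5G66580 and GA20OX3 drop between 48 h S and 1 h SL.

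Exact matches to known elements in the 250 bases before the start were counted on both strands for 22704 of the genes tested. The heat shock element was found in 17.2% of 1022 promoters of genes that were higher and in 14.6% of 840 of genes that were lower, beside 15.8% of all. It was in 22.6% of the 137 promoters of genes that rose at least 4-fold and in 19.6% of the 56 of genes that fell at least 4-fold. *HSFA2*, *HSFA7A* and *HSFA7B* had 3, 4 and 3 matches, and at least 2 matches were present in 1.68% of all promoters. The 3 class B factors that rose had none. Of the small heat shock proteins 5 of the 11 that were higher had a match, and 2 of the 8 that were not called. Of the larger chaperones 2 of the 16 that were higher had a match, with none in HSP101, HSP90.1 or HSP70, and 3 of the 15 that were not called. The evening element was in 4.99% of promoters of genes that were higher, 5.71% of those that were lower and 4.75% of all, and in 9.49% of those that rose and 8.93% of those that fell at least 4-fold. It was in 3 of the 10 clock genes that were lower, 2 of the 5 that were higher and 5 of the 20 that were not called. The G-box CACGTG was in 8.32% of promoters of genes that were higher, 10.48% of those that were lower and 7.21% of all, and site II was in 15.9%, 12.9% and 15.6%. No test was run on these shares, and a match is a description of letters, not a binding site.

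The relative use of isoforms was compared for 8324 genes by the log2 ratio of the 2 transcripts with the highest mean, using the deposited transcript values and limma over 30 libraries. The ratio differed in 59 genes (0.709%) at an adjusted p below 0.01. These include genes with a transcript near the floor, where the added 0.1 weighs on the ratio. In *HSP101*, transcript 2 had values of 0.034, 0.034 and 0.049 at 48 h S. Its transcript 1 made up 98.9%, 98.9% and 99.1% of the pair at 1 h SL, against 98.1%, 97.5% and 97.4% at 48 h S. With the 6 libraries alone none passed in limma, although 1304 genes had an unadjusted p below 0.05, and without 1 h SL replicate 2 the count was 174, of which 47 were among the 59. It was 35 without 1 h SL replicate 3 and 32, 29 and 26 without 48 h S replicates 1, 2 and 3. In 10 of the 59 the main transcript was another one at 1 h SL than at 48 h S, and in 12 the gene count was called as well. The largest change was in *AT3G14190*, an uncharacterised protein. Its transcript 2 made up 1.88%, 5.404% and 4.74% of the pair at 1 h SL, against 73.6%, 71.5% and 79.7% at 48 h S (log2 ratio change -5.58 ± 0.49, adjusted p = 2.90e-07). The gene count had a log2 fold change of 0.20 and was not called. *PHYB*, the main red light receptor, also had another main transcript at 1 h SL than at 48 h S. Transcript 1 made up 65.6%, 78.3% and 51.8% of the pair at 1 h SL, against 21.6%, 15.4% and 9.64% at 48 h S (3.25 ± 0.38, adjusted p = 2.31e-05, and 0.111 with the 6 libraries alone), and the gene count had 17.62, 34.1 and 18.7 CPM at 1 h SL, against 30.8, 27.97 and 26.2 CPM at 48 h S, with no call. *UNE6*, a LUC7-related splicing protein, had transcript 1 at 88.1%, 93.3% and 95.2% of the pair at 1 h SL, against 62.4%, 59.1% and 60.2% at 48 h S (2.97 ± 0.43, adjusted p = 2.67e-04). Groups did not overlap in these 3 genes, nor in the other 3 pairs named next. How many of all pairs compared had separate groups was not counted. *AT2G19930*, an RNA-dependent RNA polymerase (-3.58 ± 0.45), *POP4*, a ribonuclease P subunit (-3.34 ± 0.68), and *CIP4.1*, which binds the light signalling ligase COP1 (-3.27 ± 0.66), completed the 6 with the largest change among called genes whose transcripts both had a mean of at least 1 over the 6 libraries. Their adjusted p with the 6 libraries alone lay between 0.0211 and 0.162. The calls of POP4 and CIP4.1 (adjusted p = 0.00809 and 0.00787) were lost without 1 h SL replicate 1 or 3 or 48 h S replicate 2 or 3, and that of POP4 without 48 h S replicate 1 too, with adjusted p of up to 0.045 for POP4 and 0.0578 for CIP4.1. Of 16 SR splicing factors compared, 1, *RSZ22*, changed its isoform ratio.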

How the data were processed

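Poly(A) RNA per the labels (a total RNA kit is named in the methods) from whole seeds was sequenced in 3 biological replicates per time point. The authors trimmed reads with Trim Galore 0.4.2, aligned them to TAIR10 with HISAT2 2.0.5 and deposited a table of unnormalised gene counts from featureCounts 1.5.1. Whether strand was used and how reads shared by similar or overlapping genes were counted is not given in the sources used here. The authors also quantified transcripts with Salmon 0.7.2, and the deposited isoform signal behaves like TPM divided by a size factor per library, which is inferred from the values. Deposited tables of the authors' own test results (DESeq2 1.10.1, sleuth 0.28.1) and of log2 values of their called genes were not used. All columns of per-sample values in the tables used were mapped (0 not used).

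Counts were fitted with edgeR 4.0.16 (R 4.3.3), with TMM scaling, filterByExpr at a minimum count of 10, time point as a factor over 30 libraries and the quasi-likelihood test. Genes were called at a Benjamini-Hochberg adjusted p below 0.01. Isoform ratios were tested with limma 3.58.1 on log2(value + 0.1). The script was tested on simulated data. Alternatives were DESeq2 1.42.0, other scalings and filters, the 6 libraries alone, a replicate block and leaving out each library. The p-values measure only the spread between samples of 1 seed batch.

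The text names the 12 genes with the largest rise and the 12 with the largest fall among those called with a mean of at least 5 CPM in the higher group and groups that did not overlap, the called members of each list with the largest changes (up to 4 each way) and other members whether or not they passed, and the 6 called isoform pairs with the largest change whose transcripts both had a mean of at least 1 over the 6 libraries. The comparison and the gene lists were chosen with earlier results of these data known. Of 37336 annotated genes, 37051 (99.24%) matched the NCBI RefSeq reference of TAIR10 by locus tag, and 881 further features were unannotated loci. Promoters of 250 bases were read from that genome.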

Additional observations from a re-analysis of the deposited data

How the results depend on the processing

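The counts of genes called depended more on the test and the libraries fitted than on the scaling. DESeq2's Wald test called 1572 higher and 1525 lower, the fit of 6 libraries alone 176 and 99, and a replicate block with those 6 libraries 233 and 163. Calls that were also at least 2-fold numbered 513 and 381. Leaving out 1 library gave 589 to 1088 higher and 410 to 645 lower, lowest without 48 h S replicate 2. DESeq2 size factors in edgeR gave 996 and 975, and no filter on low counts 1007 and 696. With library size alone the counts were 924 and 697, and the median of all genes moved to 0.11. For isoform ratios a pseudocount of 1 gave 156 genes, the 6 libraries alone gave 0, and leaving out 1 library gave 26 to 174, the highest without 1 h SL replicate 2. It was 35 without 1 h SL replicate 3 and 32, 29 and 26 without 48 h S replicates 1, 2 and 3.

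The replicate block over 30 libraries called 961 higher and 795 lower, and 49 isoform ratios. Deviations from the group means correlated at -0.116, 0.143 and 0.177 between libraries of the same number. Between libraries of different numbers they correlated at -0.260 to 0.175. With 3 libraries per group, of which 1 stood apart, these values cannot tell whether libraries of the same number were paired.

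Of the alternatives for named genes, 1507 kept direction and side of the threshold, 248 lost the call, 8 gained it and 3 changed sign. For isoform ratios these were 43 kept and 17 lost. The changes of sign were in genes that were not called: the log2 fold change of HSFA1B was 0.026 with library size alone and -0.088 to 0.011 with a library left out (0.011 without 48 h S replicate 1), and that of HSFA1D was -0.45 to 0.011 (0.011 without 1 h SL replicate 1). The causes were not tested. With 3 libraries per group, of which 1 stood apart, a gene that was not called is not shown to be unchanged.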

Other observations

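Some gene groups were chosen after their values were seen, and their counts are given as values only. Of all genes tested, 4.43% were higher and 3.66% lower at 1 h SL than at 48 h S. Of 119 genes annotated as DnaJ proteins, co-chaperones of HSP70, 13 were higher (10.9%) and 4 lower (3.36%), with a median log2 fold change of -0.08. Of 46 core histone genes, which package DNA and are mostly made during DNA replication, none was higher and 9 were lower (19.6%), with a median of -0.43. Without 1 h SL replicate 2 only 2 were lower and the median was -0.17. HTB2 (-1.64) and AT2G28720 (-1.05) fell most among the called members. Of 58 WRKY transcription factors, known from defence and stress, 1 was higher (1.72%) and 9 were lower (15.5%), with a median of -0.37. WRKY22 was the one that was higher (1.46), and WRKY23 (-1.53) and WRKY27 (-1.32) fell most among the called members. Without 1 h SL replicate 2, 1 was higher and 6 were lower.

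Of 555 long non-coding RNAs tested 10 were higher (1.80%) and 38 lower (6.85%), beside 4.43% and 3.66% of all genes tested. The median was -0.17, and without 1 h SL replicate 2, 13 were higher and 23 lower (median 0.01). Of 188 small nucleolar RNAs, which guide the modification of ribosomal RNA, 5 were higher (2.66%) and 6 lower (3.19%). Their median was 0.21, and without that library 19 were higher and 2 lower (median 0.45). Small nucleolar RNAs have no poly(A) tail in their mature form.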
